A study of Caenorhabditis elegans with 2 samples.

Results

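The histone genes of Caenorhabditis elegans were described by the lengths of their poly(A) tails in wild-type N2 animals at the L4 larval stage. Members were the rows whose gene symbol was his- or hil- followed by a number, together with htz-1 and hcp-3. The rule found 53 of the 13601 genes of the table, made up of 42 core genes, 4 variants (his-71, his-72, htz-1 and hcp-3) and 7 linker histone genes. By the rule the core group held every his gene apart from his-71, his-72 and the linker gene his-24. It therefore also held his-69, his-70 and his-74, H3 genes of the H3.3 type by their usual nomenclature, which are described with the variants, and his-73, whose class was not assigned here.

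Tails had been measured by mTAIL-seq, a sequencing assay that joins its adapter preferentially to polyadenylated RNA by way of a splint oligonucleotide and reads the tail from fluorescence signals. There was 1 group, whole wild-type animals with no treatment, kept on OP50 at 25 °C until the 29 h time point, with 2 biological replicates. The table gives 1 row per gene over both replicates, so every value below is a pooled value with no replicate error and no test, and depth per replicate is unknown. Each tag is 1 tail call, and the table holds 17376490 tags, of which histone genes held 42907, or 0.247%. In RNA of whole animals, fewer cells that make a transcript and less of it per cell cannot be told apart.

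Core histones H2A, H2B, H3 and H4 form the protein spool of the nucleosome, and linker histone H1 binds the DNA between nucleosomes. In animals most core histone mRNAs are made during DNA replication and end in a stem-loop bound by a dedicated protein in place of a poly(A) tail, whereas the messages of replacement variants such as H3.3 and H2A.Z are made throughout the cell cycle and are polyadenylated. The worm's core histone genes lie in clusters, often as neighbouring H2A and H2B or H3 and H4 genes. Since RNA without a poly(A) end is disfavoured by the assay, a core gene's tags may stand for only some of its RNA, and how much of that RNA was polyadenylated was not measured.

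Counted gene by gene, histone transcripts carried shorter tails than most genes, whereas over tags the direction turned. The 8803 genes with at least 100 tags had a median tail of 80 nt, taken over their gene medians, and for the 33 histone genes that reached 100 tags the same value was 64 nt. Over the tags of these genes, the median was 68 nt (67 to 68 nt) for histone genes and 57 nt for all genes, a summary in which each gene counts by its tags. That interval takes the tags as 1 pool and leaves out the spread between the 33 genes, whose medians ran from 50 to 97 nt. his-35, his-37 and his-41 held 32.9% of all histone tags and the 4 variants 32.7%. Each gene's median was given a 95% interval from the exact binomial order statistics of its tags, which covers counting error only. The interval lay wholly below 80 nt in 29 of these 33 genes, where 36.7% of all genes did so, and wholly above it in 1 gene, hil-2, where 35% of all genes did so. The other 3, his-17, his-49 and hil-3, had intervals that included 80 nt. Genes with many tags had shorter tails and narrower intervals in the table as a whole, so the counts were also read by tag number. Among genes with at least 100 and under 1000 tags, 18 of 22 histone genes lay below, against 27.8% of all genes in that range. Among genes with at least 1000 tags, 11 of 11 histone genes lay below 80 nt, against 66.1% of all genes. In that range, however, the median over all genes was itself 72 nt, and that over the histone genes was 65 nt. The intervals of his-37 and his-41 (74 to 76 nt each) and his-72 (75 to 77 nt) lay above 72 nt. That of his-35 (70 to 76 nt) included it, and the others lay below it. With all listed genes and no minimum, 36 of 53 histone genes lay below 80 nt and 4 above, against 27.8% and 30.8% of all genes, and the median of their medians was again 64 nt.

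**Figure D1:**
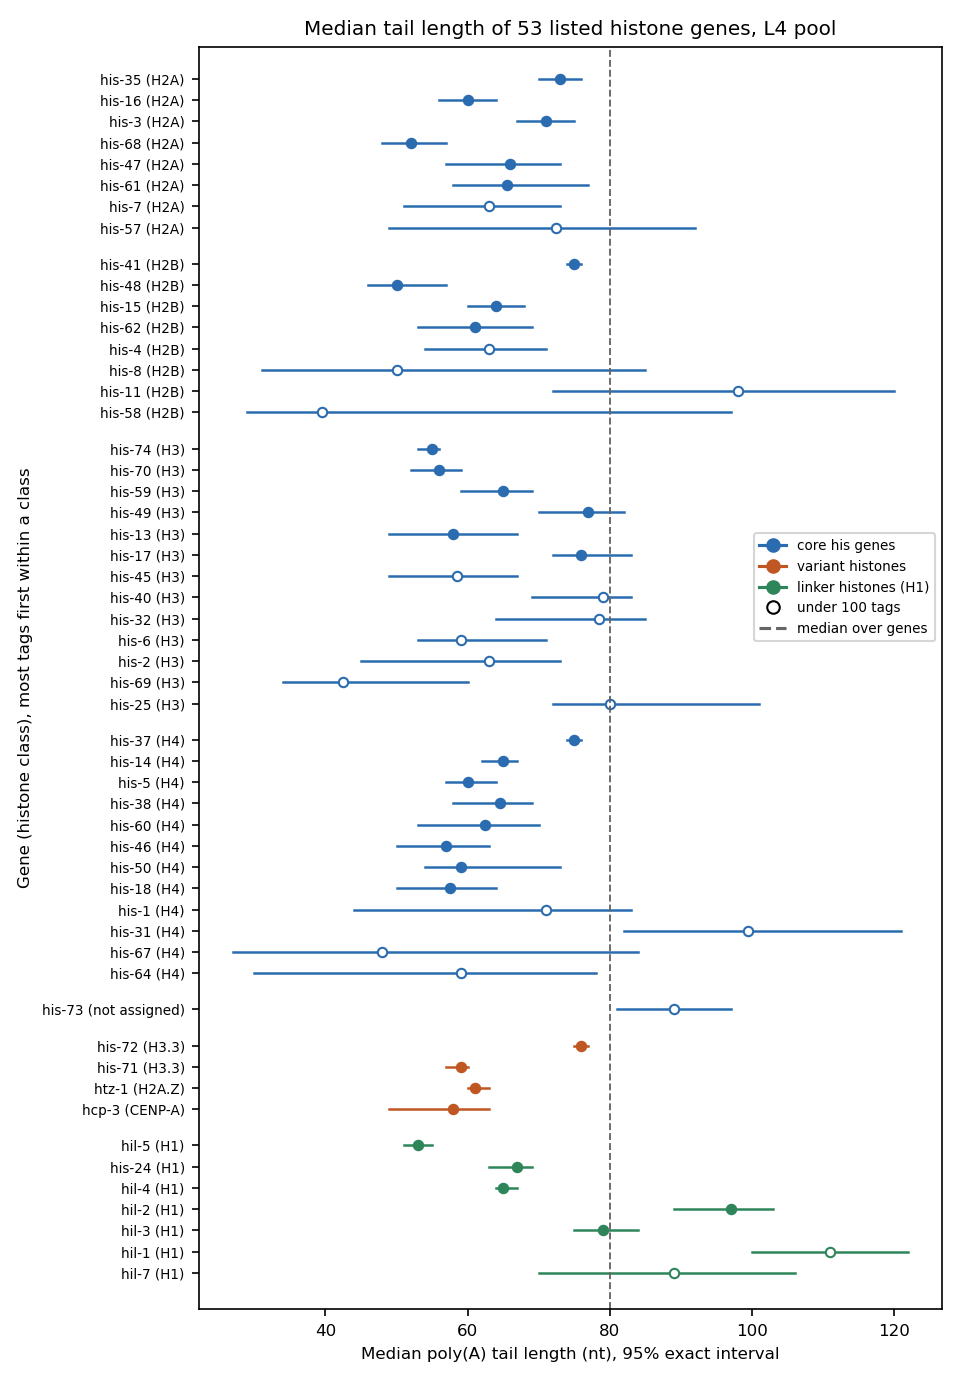
Median poly(A) tail length in nt on the horizontal axis for each of the 53 listed histone genes, with bars for the 95% exact interval of the median (counting error only) and open circles for genes under 100 tags. Most filled circles lie left of the dashed line at 80 nt, the median over genes, and hil-2, at 97 nt, is the only filled circle whose bar lies wholly to its right.

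Gene by gene, most histone genes had few tails over 100 nt. The share of tails over 100 nt was below the median share over all genes, 31.8%, in 31 of the 33 histone genes, the exceptions being hil-2 and hil-3. The share of tails under 30 nt was above the corresponding median, 6.34%, in 29 of 33. Over the tags of the genes with at least 100 tags, the share over 100 nt turned direction, with 20.6% of histone tags against 15.97% of all tags, and the shares under 30 nt were close, at 9.41% and 9.36%. In 29 of 33 genes the population SD of the tails was below 39.7 nt, its median over all genes. Unlike the interval counts, these counts of genes were not read by tag number. The core genes with at least 100 tags ranged from 2.91 to 30.5% of tails over 100 nt and from 2.91 to 22.7% of tails under 30 nt.

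**Figure D2:**
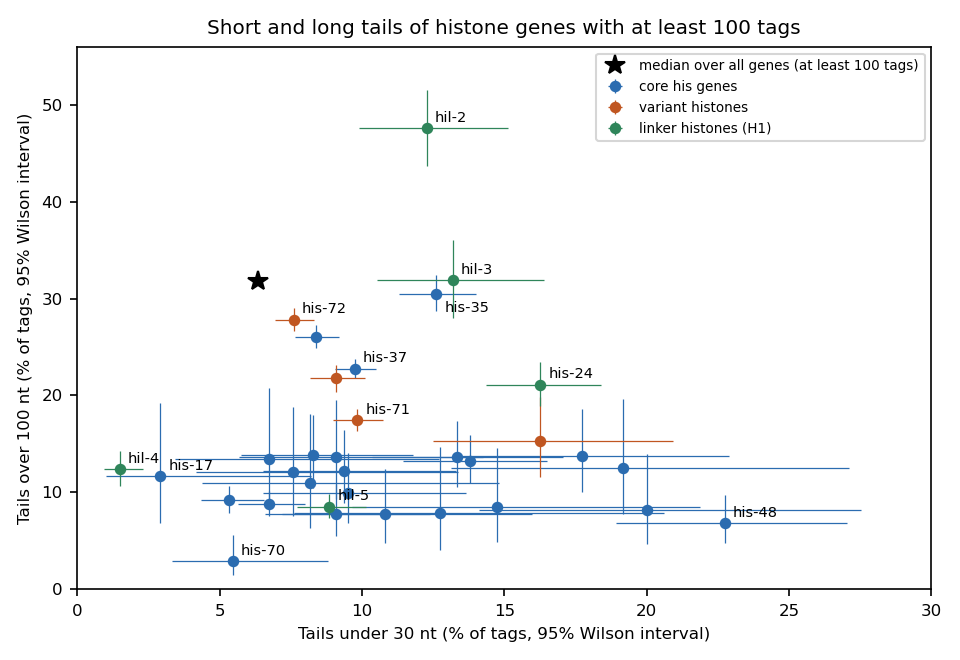
Percentage of a gene's tags with tails under 30 nt (horizontal) and over 100 nt (vertical) for the 33 histone genes with at least 100 tags, with 95% Wilson intervals for counting error. Of these genes 27 lie both below and to the right of the star, which marks the medians over all genes at 6.34% and 31.8%. The share of all genes that lie there was not computed, so the count is a description only.

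Of the 42 core genes, 24 had at least 100 tags, and the median of their medians was 63.25 nt, with a range from 50 nt (his-48) to 77 nt (his-49). Intervals lay below 80 nt in 22 of the 24 and above it in 0. The 4 protein classes had similar medians over their genes, 65.75 nt for H2A (6 genes), 62.5 nt for H2B (4 genes), 61.5 nt for H3 (6 genes) and 61.25 nt for H4 (8 genes), and these medians differed by less than the genes within any of the classes. H4 ranged from 57 to 75 nt and H2B from 50 to 75 nt. Many core genes are near-identical copies, so tags may have been assigned to the wrong copy and the value of a single gene is uncertain.

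The core tags came mainly from 3 genes. his-37 (C50F4.7), an H4 gene, had 6722 tags and a median of 75 nt with an interval of 74 to 76 nt. his-41 (C50F4.5), an H2B gene, had 5050 tags and the same median and interval. his-35 (C50F4.13), an H2A gene, had 2350 tags and a median of 73 nt (70 to 76 nt). These genes were singled out after their values were seen. They are neighbours in RefSeq's gene order, and together they held 61.7% of all core tags. No other core gene exceeded 1750 tags.

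Their tails were longer than those of most other core genes. Of the 21 other core genes with at least 100 tags, 14 had intervals that ended below 70 nt, the lower limit of the his-35 interval, a limit taken after its value was seen, and 18% of all genes with at least 100 tags did so. The median over these 21 genes was 61 nt. Long tails also separated the neighbours from these 21 genes. Tails over 100 nt made up 30.5% in his-35 (95% Wilson interval 28.7 to 32.4%), 26.1% in his-41 (24.9 to 27.3%) and 22.8% in his-37 (21.8 to 23.8%). The highest share among the other 21 genes was 13.8%, in his-3. Some core genes under 100 tags had higher shares than the neighbours. These included his-73 at 34.6% (25 to 45.7%, 78 tags), his-31 at 45% (20 tags) and his-11 at 44.4% (18 tags). Of the neighbours, his-35 had the most spread tails. Its middle 50% ran from 38 to 108 nt against 48 to 98 nt in his-37, although their medians differed by only 2 nt.

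**Figure D3:**
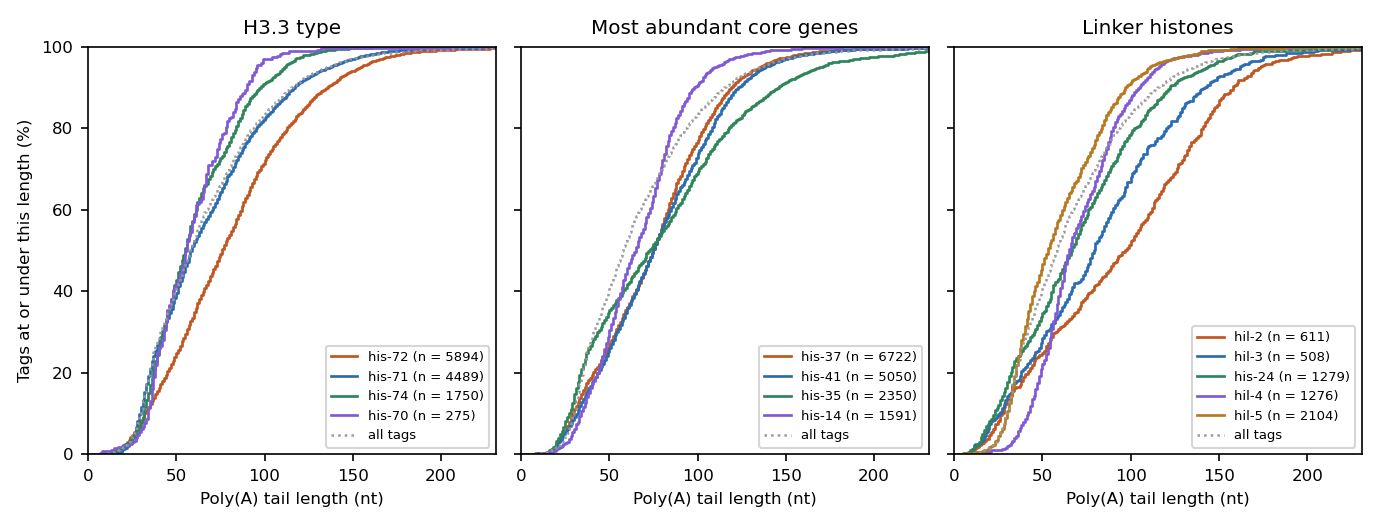
Cumulative percentage of tags against poly(A) tail length in nt for genes of the H3.3 type (left), the 4 core genes with the most tags apart from his-74 (middle) and the 5 linker histone genes with at least 100 tags (right), with all tags of the table dotted. The his-72 curve lies to the right of his-71, his-35 crosses his-37 near their medians, and at the 50% line hil-5 is the leftmost and hil-2 the rightmost of the linker genes.

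Among H2A genes, the next after his-35 was his-16, with 711 tags and a median of 60 nt (56 to 64 nt). his-3 was at 71 nt (67 to 75 nt), and his-68 was the shortest H2A gene at 52 nt (48 to 57 nt). The his-3 and his-68 intervals did not overlap. his-47 and his-61 lay between them, at 66 and 65.5 nt.

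Among H2B genes, his-48 was the shortest core gene with at least 100 tags, at 50 nt (46 to 57 nt) over 409 tags, and 22.7% of its tails were under 30 nt. his-15 had 397 tags and a median of 64 nt, and his-62 had 120 tags and a median of 61 nt. All 3 lay below the interval of his-41.

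Among H3 genes, his-74 and his-70, of the H3.3 type, held the most tags and had the lowest medians of those with at least 100 tags. Of the other H3 genes, his-59 had a median of 65 nt (59 to 69 nt) over 263 tags and his-13 of 58 nt (49 to 67 nt) over 129 tags. his-49 reached 77 nt (70 to 82 nt) and his-17 reached 76 nt (72 to 83 nt). The tails of his-17 were the least spread of all core genes with at least 100 tags, with an SD of 21.8 nt, and 68% of them lay between 60 and 100 nt.

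Among H4 genes, his-14 followed his-37 with 1591 tags and a median of 65 nt (62 to 67 nt), and only 9.18% of its tails exceeded 100 nt. his-5 had a median of 60 nt (57 to 64 nt) over 385 tags and his-38 of 64.5 nt (58 to 69 nt) over 288 tags. his-60, his-50, his-18 and his-46 followed at 62.5, 59, 57.5 and 57 nt, and their intervals all overlapped each other. The 7 H4 genes with at least 100 tags other than his-37 thus lay within 8 nt of one another, and all of them below his-37.

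The 18 core genes under 100 tags had between 10 and 98 tags each. Their intervals lay below 80 nt in 7, above it in 2 and included it in 9, where 11.3% of all genes under 100 tags lay below and 23% above. The H3 genes his-45 (98 tags), his-40 (97), his-32 (94), his-6 (48), his-2 (45), his-69 (38) and his-25 (21) had medians of 58.5, 79, 78.5, 59, 63, 42.5 and 80 nt. The H2B genes his-4 (87 tags), his-8 (19), his-11 (18) and his-58 (12) were at 63, 50, 98 and 39.5 nt, and the H2A genes his-7 (51) and his-57 (22) at 63 and 72.5 nt. The H4 genes his-1 (31 tags), his-31 (20), his-67 (19) and his-64 (10) were at 71, 99.5, 48 and 59 nt. his-73 had 78 tags and a median of 89 nt (81 to 97 nt). It and his-31 (82 to 121 nt) were the only core genes whose intervals lay above 80 nt.

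Of the 82 symbols that fit the rule in RefSeq's gene table for WBcel235, 53 had a row in the table and 29 were not analysed here. Rows were found for 12 of 16 core H4 genes and 13 of 18 core H3 genes, and for 8 of 17 H2A and 8 of 17 H2B genes. All 4 variants had a row, and hil-6 and hil-8 were the linker genes without one. Every gene of the table had at least 10 tags.

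Neighbouring genes could be compared where both of a pair were listed. Core genes of the RefSeq order were joined into 13 runs, each gene with at most 4 other genes before the next. Each listed H2A gene was paired with the nearest listed H2B gene of its run, at most 3 places away, and H3 genes likewise with H4 genes. Genes without a row were passed over, so a pair need not be the closest annotated genes. This gave 7 pairs of H2A and H2B genes and 9 pairs of H3 and H4 genes. The H2A gene had the longer median in 5 of 7 pairs and the H3 gene in 5 of 9. Where both genes had at least 100 tags, the H2A gene was longer in 2 of 4 pairs and the H3 gene in 3 of 4. The intervals overlapped in 15 of the 16 pairs, and in 7 of the 8 pairs with at least 100 tags in each gene. Over all genes at most 3 places apart in RefSeq's order with at least 100 tags each, 59.2% of pairs had intervals that did not overlap, a share not matched for tag number. The exception among the histone pairs was his-17, at 76 nt, beside its H4 neighbour his-18, at 57.5 nt (50 to 64 nt), a difference of 18.5 nt between genes of 103 and 102 tags. his-49 and his-50 differed by 18 nt in the same direction, with intervals that overlapped between 70 and 73 nt. The run from his-61 to his-59 was the only one with at least 4 genes in which every annotated gene had 100 tags. Its medians were 65.5 nt (his-61), 61 nt (his-62), 62.5 nt (his-60) and 65 nt (his-59), with all intervals overlapping. The run from his-47 to his-57 was wider among its 3 genes with at least 100 tags, from 50 nt in his-48 to 66 nt in his-47, whose intervals met at 57 nt.

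**Figure D4:**
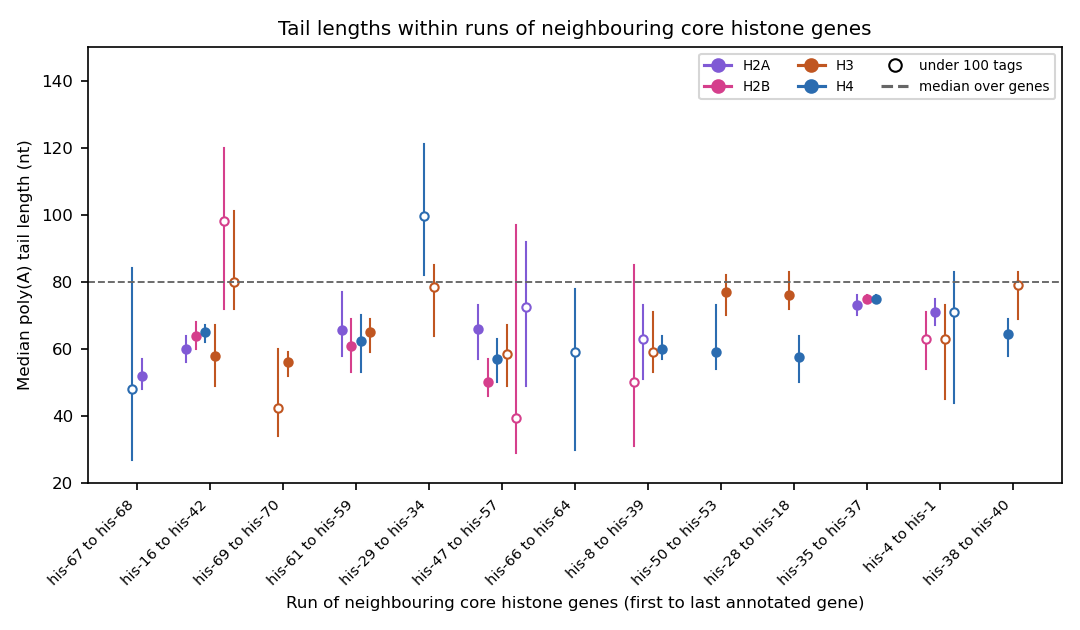
Median poly(A) tail length in nt of core histone genes, grouped on the horizontal axis by the 13 runs of neighbouring genes, coloured by protein class, with 95% exact intervals and open circles for genes under 100 tags. The run from his-35 to his-37 has its 3 medians at 73 to 75 nt with narrow intervals, and the dashed line marks 80 nt, the median over genes.

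Among the 4 variant histone genes, his-72 stood apart with the longest tails, and hcp-3 had far fewer tags than the other 3. Together they held 14040 tags, or 32.7% of all histone tags, and the median of their medians was 60 nt, 3.25 nt below that of the core genes. With mean tail lengths the order turned, to 69.4 nt for variants against 65.8 nt for core genes. All 4 intervals lay below 80 nt, against 36.7% of all genes with at least 100 tags and 66.1% of those with at least 1000 tags, a number that 3 of the 4 variants reached. The median over all genes with at least 1000 tags was 72 nt, and the his-72 interval lay above it. his-72 (Y49E10.6) and his-71 (F45E1.6) both encode H3.3, the variant that replaces H3 outside replication. his-72 had 5894 tags and a median of 76 nt (75 to 77 nt), and his-71 had 4489 tags and a median of 59 nt (57 to 60 nt). The H3.3 genes thus differed by 17 nt at similar tag numbers, with intervals that were at least 15 nt apart. The distributions differed throughout, by 13 nt at the lower quartile (51 against 38 nt) and by 17 nt at the upper quartile (105 against 88 nt). Tails over 100 nt made up 27.8% of his-72 tags (26.7 to 29%) and 17.4% of his-71 tags (16.3 to 18.6%), while tails from 30 to 59 nt made up 25.8% and 41.2%.

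The further genes of the H3.3 type, placed in the core group by the rule, had short median tails. his-74 (W05B10.1) had 1750 tags and a median of 55 nt (53 to 56 nt), and his-70 (E03A3.4) had 275 tags and a median of 56 nt (52 to 59 nt). Their shares over 100 nt were 8.74% and 2.91%, the latter the lowest of all 33 histone genes with at least 100 tags. his-69 (E03A3.3), the annotated neighbour of his-70, was at 42.5 nt with 38 tags. Within the H3.3 type, his-72 was therefore the only gene with a median above 60 nt.

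htz-1 (R08C7.3) encodes H2A.Z, the H2A variant found at promoters and other regulatory DNA. It had 3362 tags and a median of 61 nt (60 to 63 nt). This was 12 nt below his-35, the longest of the core H2A genes with at least 100 tags, but within their range of 52 to 73 nt. The upper quartile of htz-1 was 95 nt, and 21.8% of its tails exceeded 100 nt. The H2B gene his-62, with the same median but 120 tags, had an upper quartile of 82 nt and 12.5% of tails over 100 nt. The contrast was smaller with his-71, at a median of 59 nt over 4489 tags, an upper quartile of 88 nt and 17.4% over 100 nt. hcp-3 (F58A4.3) encodes CENP-A, the H3 variant of centromeric chromatin. It had 295 tags and a median of 58 nt (49 to 63 nt), with 16.3% of tails under 30 nt (12.5 to 20.9%) and 15.3% over 100 nt (11.6 to 19.8%). Of the relatives outside the rule, cpar-1, which encodes a CENP-A-like protein, had a median of 68 nt (54 to 75 nt) over 123 tags, and htas-1, which encodes an H2A variant of sperm, had 82 nt (75 to 91 nt) over 122 tags.

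Among genes with at least 100 tags, linker histones were the most diverse group, from 53 to 97 nt in 5 genes. The median over these 5 was 67 nt, and over all 7 listed linker genes it was 79 nt. With no minimum, the 7 linker genes ran from 53 to 111 nt and the 42 core genes from 39.5 to 99.5 nt, so the ranking holds only with the minimum. hil-5 (B0414.3) had the most tags, 2104, and the shortest median, 53 nt (51 to 55 nt). his-24 (M163.3), an H1 gene despite its symbol, and hil-4 (C18G1.5) had nearly the same depth, with 1279 and 1276 tags, and nearly the same median, 67 nt (63 to 69 nt) and 65 nt (64 to 67 nt). The shapes differed, since the middle 50% of his-24 tails spanned 38 to 94 nt and that of hil-4 tails 53 to 87 nt. Tails under 30 nt were 16.3% of his-24 tags (14.3 to 18.4%) and 1.49% of hil-4 tags (0.955 to 2.31%), the lowest share of any histone gene with at least 100 tags.

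The less abundant linker genes had longer tails. hil-3 (F22F1.1) had 508 tags and a median of 79 nt (75 to 84 nt), and hil-2 (Y73B6BL.9) had 611 tags and a median of 97 nt (89 to 103 nt). In hil-2, 47.6% of tails exceeded 100 nt (43.7 to 51.6%) and the SD was 50.5 nt, the largest of the 33 genes. hil-2 and hil-5 differed by 44 nt, with intervals at least 34 nt apart. Under 100 tags, hil-1 (97 tags) had a median of 111 nt (100 to 122 nt), the longest of all 53 histone genes, and hil-7 (93 tags) was at 89 nt (70 to 106 nt). The order by median was thus hil-5, hil-4, his-24, hil-3, hil-7, hil-2 and hil-1, in which hil-4 and his-24 overlapped, as did hil-3 with hil-7, hil-7 with hil-2 and with hil-1, and hil-2 with hil-1.

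**Figure D5:**
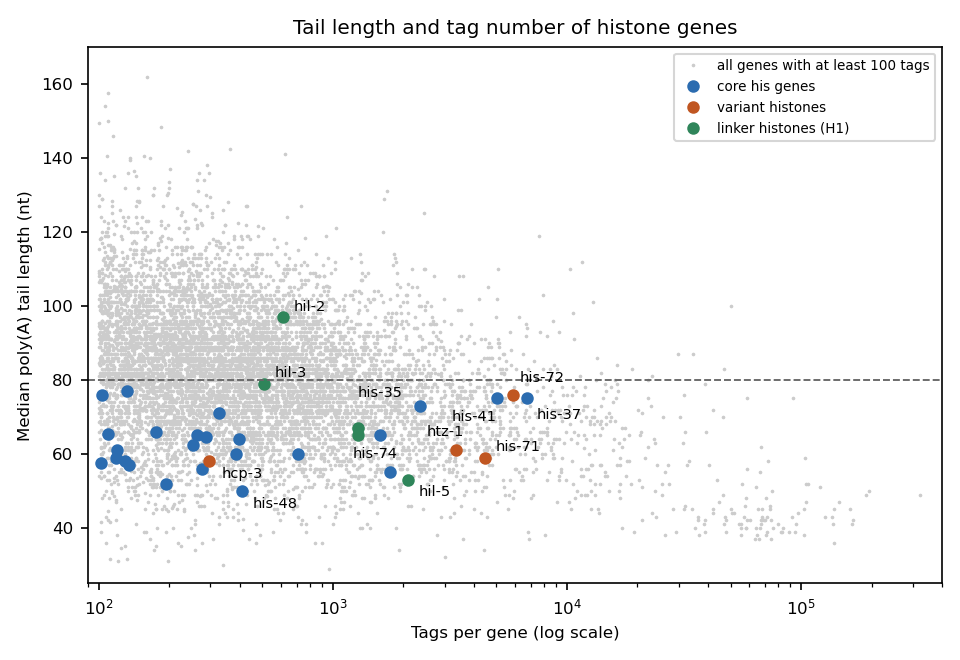
Median poly(A) tail length in nt against tags per gene (log scale) for the 33 histone genes with at least 100 tags, over all 8803 genes in grey. The points of his-35, his-37, his-41 and his-72, at 73 to 76 nt, lie above the other histone genes of similar tag number, and hil-2 lies at 97 nt.

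Across all analysed genes, median tail length fell with tag number, with a Spearman's rho of -0.30 over 8803 genes. Among the 33 histone genes rho was 0.18, and among the 24 core genes it was 0.10, or -0.20 over 21 genes without his-35, his-37 and his-41. These are descriptions across genes, with tag number and tail length read from the same tags.

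The genes that process histone mRNA or place histones on DNA were mixed in tail length. Of a list of 16 such genes, 15 had at least 100 tags, with a median of 77 nt. Intervals lay below 80 nt in 7 of the 15 and above it in 4, where the shares over all genes were 36.7% and 35%. cdl-1, whose protein binds the histone mRNA stem-loop, was the shortest at 59.5 nt (56 to 63 nt) over 324 tags. Next came the nucleosome assembly gene nap-1 at 64 nt and asfl-1, which encodes an Asf1 chaperone of H3 and H4, at 65 nt. The other Asf1 gene, unc-85, was at 86 nt (83 to 89 nt), with an interval that did not overlap that of asfl-1 (60 to 71 nt). The related RbAp46/48 genes lin-53 and rba-1 were at 71 nt (69 to 74 nt) and 97 nt (94 to 101 nt). The genes of the histone chaperone FACT, spt-16, hmg-3 and hmg-4, were at 67, 68 and 77 nt. chaf-1 and chaf-2, which encode subunits of the replication-coupled chaperone CAF-1, were at 81 and 69 nt. hira-1, which encodes a chaperone of H3.3, was at 83 nt, and xnp-1, an ATRX-related gene, at 91 nt. knl-2, required to load CENP-A, was at 84 nt, and csr-1, an Argonaute gene linked to histone mRNA, at 85 nt. ssl-1, whose product is related to the remodeller that exchanges H2A.Z, had 84 tags and a median of 89.5 nt.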

How the data were processed

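Poly(A) tails of L4 animals were measured by mTAIL-seq in 2 biological replicates, which the deposited table does not tell apart. The authors' tail calls came from tailseeker2, per the labels' protocols. STAR and bedtools are named in the submitters' processing notes. Not given in the sources used here: their roles and versions, the build and annotation, and whether tags are distinct molecules. The deposited counts are unnormalized tail calls per gene; the deposited list of lengths and its summaries are in nt. Recomputed from that list, 0 of 13601 genes changed in count, mean, median or population SD.

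Medians with 95% exact binomial order-statistic intervals and Wilson intervals for shares were computed with Python 3.11.15, numpy 2.4.6 and scipy 1.17.1, for genes with at least 100 tags, over the whole table. The interval code was tested on simulated data. The longest callable value, 231 nt, is a lower bound, but means and SDs used it as an exact length. Histone classes follow the standard worm nomenclature. The annotated length in RefSeq's WBcel235 table was the one usual for the class in 60 of 68 core genes and that of another class in 1. These 68 were all annotated core genes with a class, with or without measured tails. The class medians were not recomputed without the genes of unusual length. RefSeq's table also gave gene order and the symbols of hira-1 and spt-16. Its build may differ from the authors', so no coordinates are given.

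The genes named were, by rule, all linker and variant genes, all genes under 100 tags, and in each core class the genes with the most tags, the shortest and the longest; the remaining core genes were added after their values were seen. Members and lists were chosen with earlier results of these data known. With 1 pooled group, no test between conditions was made.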

Additional observations from a re-analysis of the deposited data

How the results depend on the processing

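The medians over genes named here are mainly those that moved by more than the median interval half-width of their single genes (5.25 nt for core, 1.5 nt for variant and 3 nt for linker genes), which is not the error of a group median, and the counts named are those that moved by over 1.5 times. With a minimum of 10 tags the linker median was 79 nt, and 2 of 53 histone genes lay above a median over genes that itself moved to 82 nt, against 26.6% of all genes. With a minimum of 400 tags, 9 of 15 histone genes lay below a median over genes of 76 nt, where 39% of all genes did so. Means in place of medians gave 65.8 nt for core, 69.4 nt for variant and 70.6 nt for linker genes, and means on a log scale gave 58.8, 60.4 and 66.1 nt. Weighting by tags gave 69 nt for core, 67 nt for variant and 63 nt for linker genes, so the order of core and variant genes depends on the summary used, and that of linker genes on the weighting. Centred on the median over tags, 58 nt, 4 histone genes lay below and 15 above, against 5.69% and 85% of all genes. Moving his-69, his-70 and his-74 to the variants gave 64.25 nt for core and 58.5 nt for variant genes, and leaving out his-35, his-37 and his-41 gave 61 nt for core genes; both alternatives were chosen after seeing the data. Merging genes with identical proteins and placing H3 genes by protein identity were not run, because no protein sequences were used here. Neither replicate could be left out, and no paired analysis was possible because the table holds 1 pooled value per gene.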
